A study of Mus musculus with 13 samples.

Results

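Immediate-early genes are genes whose transcription starts within minutes of a signal, without new protein synthesis. The 10 described here are Fos, Fosb, Jun, Junb, Jund, Atf3, Egr1, Dusp1, Nr4a1 and Ier2. They were taken by name, and each name was matched to 1 Ensembl identifier in GENCODE M21, so that 10 of the 54532 genes counted are covered. All 10 passed the filter on low counts in every comparison.

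The cells were natural killer (NK) cells, innate lymphocytes that kill infected or transformed cells, sorted on a BD Aria II from C57BL/6J mice aged 8 to 10 weeks. LrNK, the liver-resident NK cells, are labelled as lymphocytes of the liver, and cNK, the conventional NK cells, are labelled as splenocytes. Cell type and organ therefore differ together and cannot be told apart. Each cell type came from mice labelled wild type (B6, here WT) and from mice labelled CD8KO, whose name stands for loss of CD8, with no added treatment named. Neither the sort markers nor the number of mice per library is stated in the sources used here. There were 4 LrNK WT, 3 LrNK CD8KO, 3 cNK WT and 3 cNK CD8KO libraries.

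Total counts ran from 30578631 to 42986589 over the LrNK WT libraries and from 35910292 to 47655853 over the LrNK CD8KO libraries. The cNK libraries were deeper, with 53519657 to 72716020 counts for WT and 48600875 to 59670243 for CD8KO. LrNK WT libraries 2 and 4 differed far less than any other WT pair (chi-square per degree of freedom 3.11, against 202 to 312), and so did LrNK CD8KO libraries 2 and 3 (2.74, against 281 and 292). Pairs of cNK libraries gave 9.6 to 19.8. The 2 libraries of each close pair were summed and counted as 1 sample, called the WT pair and the CD8KO pair below, which leaves 3 LrNK WT, 2 LrNK CD8KO, 3 cNK WT and 3 cNK CD8KO samples. LrNK WT 1, WT 3 and CD8KO 1 stand apart, with 13917 to 15797 detected genes against 19896 to 22921 in the other 10 libraries. The CD8 alpha chain gene Cd8a went against the label: its level in CPM (counts scaled to 1e6 per sample) was 20.1 to 20.5 in LrNK WT and 41.6 to 43.7 in LrNK CD8KO. For cNK it was 0.561 to 0.578 in the WT samples and 85.9 to 109 in the CD8KO samples. Whether the counted reads lie in a deleted part of the gene is not known, so groups are called by their labels. The X-linked RNA Xist was at most 1.90 CPM in both WT groups, 94.9 and 134 CPM in LrNK CD8KO, and 0.247 to 815 CPM in cNK CD8KO, where it overlapped cNK WT. Its part in the results was not tested.

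Products of these genes form a short relay between a signal at the membrane and slower gene expression. Fos and Fosb pair with Jun, Junb or Jund to form AP-1, a dimer of leucine-zipper proteins that binds DNA. Atf3 is a stress-induced relative of these proteins that often acts as a repressor. Egr1 is a zinc-finger activator, Nr4a1 is an orphan nuclear receptor induced by antigen-receptor signals in lymphocytes, and Ier2 is a small nuclear protein. Dusp1 is a phosphatase that switches off MAP kinases and so closes the loop. Their promoters are commonly switched on by serum response factor and its ternary complex partners at CArG boxes and by CREB at cyclic AMP response elements (CRE). Such genes also respond to cell stress and to tissue dissociation.

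The 250 bases before the RefSeq start (GRCm38.p6) were searched on both strands for letters of known response elements. The promoter table held 8 of the 10 genes, all but Egr1 and Ier2. The CRE half-site TGACG was present in 6 of these 8 promoters, against 17.8% of 32851 promoters of the same length. Both EGR matches, GCGNGGGCG, were in Fosb and Nr4a1 (4.7% of all promoters). The full CRE, TGACGTCA, was in Dusp1 alone among the 8 (1.55% of all promoters), where it contains 2 of that gene's 3 half-sites. TATAAA was found in Fos alone (12.4% of all promoters). Neither the CArG box (1.47%) nor the AP-1 site TGANTCA (6.75%) matched in any of the 8. A match describes letters in this window and is not shown to be a bound site. The sequences below are those of the 4 genes with an entry that differed most between LrNK WT and cNK WT, with Fos added as the gene that names its family. They run 5′ to 3′ on the gene's strand and end at the base before the start, and capitals mark CRE and EGR matches on either strand.
Atf3, chr1:191183334-191183583, minus strand: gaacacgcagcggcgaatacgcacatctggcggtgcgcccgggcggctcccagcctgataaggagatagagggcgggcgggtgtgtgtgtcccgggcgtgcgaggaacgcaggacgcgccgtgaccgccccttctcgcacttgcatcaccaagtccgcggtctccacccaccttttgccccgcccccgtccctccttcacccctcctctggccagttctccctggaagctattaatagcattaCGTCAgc
Dusp1, chr17:26508473-26508722, minus strand: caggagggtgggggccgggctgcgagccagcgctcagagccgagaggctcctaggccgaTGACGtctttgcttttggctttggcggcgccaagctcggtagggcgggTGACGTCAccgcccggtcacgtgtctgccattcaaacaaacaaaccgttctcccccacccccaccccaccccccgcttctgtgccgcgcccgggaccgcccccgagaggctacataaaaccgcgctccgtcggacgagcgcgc
Fosb, chr7:19310046-19310295, minus strand: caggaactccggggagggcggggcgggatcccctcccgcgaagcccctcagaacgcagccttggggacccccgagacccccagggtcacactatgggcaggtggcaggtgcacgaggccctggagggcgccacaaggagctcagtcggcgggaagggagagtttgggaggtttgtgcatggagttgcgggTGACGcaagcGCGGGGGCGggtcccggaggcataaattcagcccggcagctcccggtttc
Nr4a1, chr15:101266596-101266845, plus strand: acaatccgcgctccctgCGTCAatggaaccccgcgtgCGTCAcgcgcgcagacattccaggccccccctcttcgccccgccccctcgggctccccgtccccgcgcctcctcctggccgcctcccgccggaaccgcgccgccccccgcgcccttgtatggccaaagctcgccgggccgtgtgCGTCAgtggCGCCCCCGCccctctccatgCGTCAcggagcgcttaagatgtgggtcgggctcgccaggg
Fos, chr12:85473640-85473889, plus strand: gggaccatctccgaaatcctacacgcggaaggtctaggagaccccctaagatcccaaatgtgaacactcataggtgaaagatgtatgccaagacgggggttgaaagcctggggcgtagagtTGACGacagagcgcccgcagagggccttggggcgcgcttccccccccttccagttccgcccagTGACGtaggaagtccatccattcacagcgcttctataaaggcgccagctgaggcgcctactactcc
The Atf3 match begins 7 bases before the start, the Fosb half-site 60 bases before it, and the 4 half-sites of Nr4a1 begin 233, 213, 69 and 40 bases before it.

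In GRCm38, Fos lies on chromosome 12 at 85473890 to 85477273, Fosb on chromosome 7 at 19302696 to 19310051, and Jun on chromosome 4 at 95049034 to 95052222. On chromosome 8 lie Junb at 84974484 to 84978718, Jund at 70698949 to 70700616 and Ier2 at 84661331 to 84662852. Atf3 is on chromosome 1 at 191170296 to 191218039, Egr1 on chromosome 18 at 34859823 to 34864984, Dusp1 on chromosome 17 at 26505590 to 26562128 and Nr4a1 on chromosome 15 at 101254269 to 101274795. Some share sequence with genes on the opposite strand, which counting without strand cannot separate: Jun with Junos (0.0557 to 3.47 CPM), Junb with Prdx2 (49.1 to 105 CPM) and Dusp1 with Ergic1 (28.9 to 87.9 CPM).

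Levels across genes were compared as CPM per kilobase of exon. Junb was the highest of the 10 in every group, with mean levels of 4047 CPM per kilobase in LrNK WT, 3931 in LrNK CD8KO, 495.8 in cNK WT and 523.3 in cNK CD8KO. In LrNK, Dusp1 was the second (963 in WT and 769 in CD8KO) and Jund was the lowest (64.0 and 49.0). In cNK the second place went to Ier2 (254 and 231) and the last to Atf3 (0.610 and 0.269). On the same scale, Junb made up 79.3 to 88.2% of the sum of the 3 Jun genes in every one of the 11 samples, while Jund made up 1.07 to 1.74% in LrNK and 2.77 to 3.23% in cNK. Below Dusp1, mean levels in LrNK WT ran from Jun (744) through Fos (615), Ier2 (605), Fosb (282), Nr4a1 (272), Atf3 (153) and Egr1 (120) to Jund, and the sample ranges of every pair of neighbours from Dusp1 down overlapped. In cNK WT the order after Ier2 was Jun (109), Fos (78.1), Dusp1 (35.6), Jund (18.0), Nr4a1 (13.9), Fosb (11.9), Egr1 (6.49) and Atf3, and only the ranges of Fosb and its neighbours Nr4a1 and Egr1 overlapped.

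**Figure D1:**
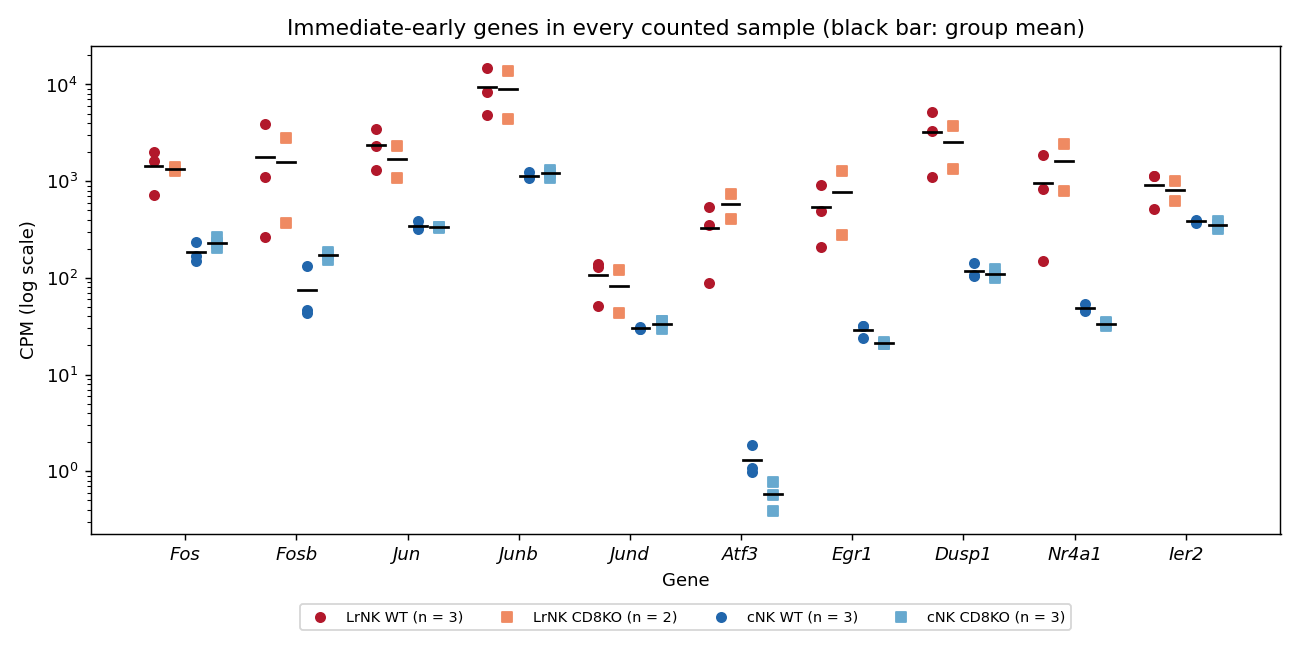
CPM of the 10 immediate-early genes in the 11 counted samples, on a log axis, with 1 point per sample and a black bar at each group's mean. Every LrNK sample (red and orange) lies above every cNK sample (blue) for each gene, and the LrNK samples of a gene are spread more widely than the cNK samples.

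The first comparison asks how liver-resident and conventional NK cells of WT mice differ. All 10 genes were higher in LrNK, by 2.55-fold for Ier2 up to 265-fold for Atf3. Atf3, Egr1, Nr4a1, Fosb and the phosphatase Dusp1 differed by 20-fold or more, whereas the 3 Jun genes and Fos differed by 3.8-fold to 8.8-fold. Of all 16456 genes tested, 10.9% were called higher in LrNK WT (edgeR quasi-likelihood test, Benjamini-Hochberg adjusted p under 0.05), and 20.7% were called in either direction. Groups with every LrNK sample above every cNK sample were seen for all 10, and for 17.0% of the genes tested. The median log2 change of the 10 was 3.73, against -0.08 over all genes tested. In bulk samples a change in the number of expressing cells and a change in RNA per cell cannot be told apart.

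Among the Fos partners, Fos stood at 716, 2011 and 1612 CPM in LrNK WT 1, the WT pair and WT 3, and at 167, 148 and 235 CPM in cNK WT 1, 2 and 3. The groups did not overlap, and the change was 3.08 ± 0.43 (log2 ± SE, edgeR adjusted p = 0.00501). Fosb stood at 267, 3904 and 1102 CPM in the same LrNK samples and at 47.0, 42.9 and 134 CPM in cNK WT. Its LrNK samples spanned a 14.6-fold range, the groups stayed apart, and the change was 4.70 ± 1.09 (edgeR adjusted p = 0.028).

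Jun was at 1320, 3492 and 2306 CPM in LrNK WT, against 323, 333 and 386 CPM in cNK WT, a change of 2.88 ± 0.38 (edgeR adjusted p = 0.0042). Junb was at 4784, 14760 and 8392 CPM against 1082, 1098 and 1242 CPM, a change of 3.14 ± 0.44 (edgeR adjusted p = 0.00522). Both had their highest value in the WT pair and their lowest LrNK value in WT 1, well above cNK. Jund, the Jun gene known for steady expression in resting cells, was at 51.4, 140 and 129 CPM against 29.4, 29.4 and 31.4 CPM, a change of 1.93 ± 0.38 (edgeR adjusted p = 0.0171). Its groups did not overlap, and LrNK WT 1 was the LrNK sample nearest to cNK.

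Atf3 was at 87.6, 356 and 544 CPM in the LrNK WT samples but at 1.88, 0.976 and 1.08 CPM in cNK WT, a change of 8.05 ± 0.83 (edgeR adjusted p = 0.00176). The lowest LrNK sample of all 5 was 46.6-fold above the highest cNK sample of all 6. Egr1 was at 210, 915 and 493 CPM against 23.9, 31.6 and 31.8 CPM, a change of 4.32 ± 0.58 (edgeR adjusted p = 0.00437). Nr4a1 was at 150, 1886 and 825 CPM against 46.8, 45.9 and 53.4 CPM, a change of 4.42 ± 0.89 (edgeR adjusted p = 0.0182). For Egr1 and Nr4a1 the WT pair was again the highest and WT 1 the lowest LrNK sample. Dusp1 was at 1097, 5157 and 3309 CPM against 104, 107 and 142 CPM, a change of 4.87 ± 0.62 (edgeR adjusted p = 0.00354). Ier2 had the smallest change, 1.35 ± 0.31 (edgeR adjusted p = 0.0281), from 374, 387 and 397 CPM in cNK WT to 516, 1121 and 1127 CPM in LrNK WT.

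Without any 1 of cNK WT 1, 2 or 3, 6 of the 10 stayed called, and Fosb, Jund, Nr4a1 and Ier2 missed the threshold (edgeR adjusted p from 0.0838 to 0.132), although their log2 changes stayed at 1.29 or more. Without LrNK WT 3 the number was 9, and Ier2 missed it (edgeR adjusted p = 0.0562). Without LrNK WT 1 all 10 were called, with log2 changes of 1.62 (Ier2) to 8.48 (Atf3). Without the WT pair all 10 were called too, and the changes fell to 3.25 for Fosb, 3.36 for Nr4a1, 3.63 for Egr1 and 4.27 for Dusp1.

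Between the samples labelled CD8KO, 9 of the 10 genes were higher in LrNK, where 15.4% of 17795 genes tested were called higher and 27.0% in either direction. Atf3, Nr4a1 and Egr1 had the largest changes, and Jund did not pass. For all 10, both LrNK samples lay above all cNK samples, as they did for 23.3% of the genes tested. The median log2 change of the 10 was 3.21, against -0.05 over all genes tested.

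**Figure D2:**
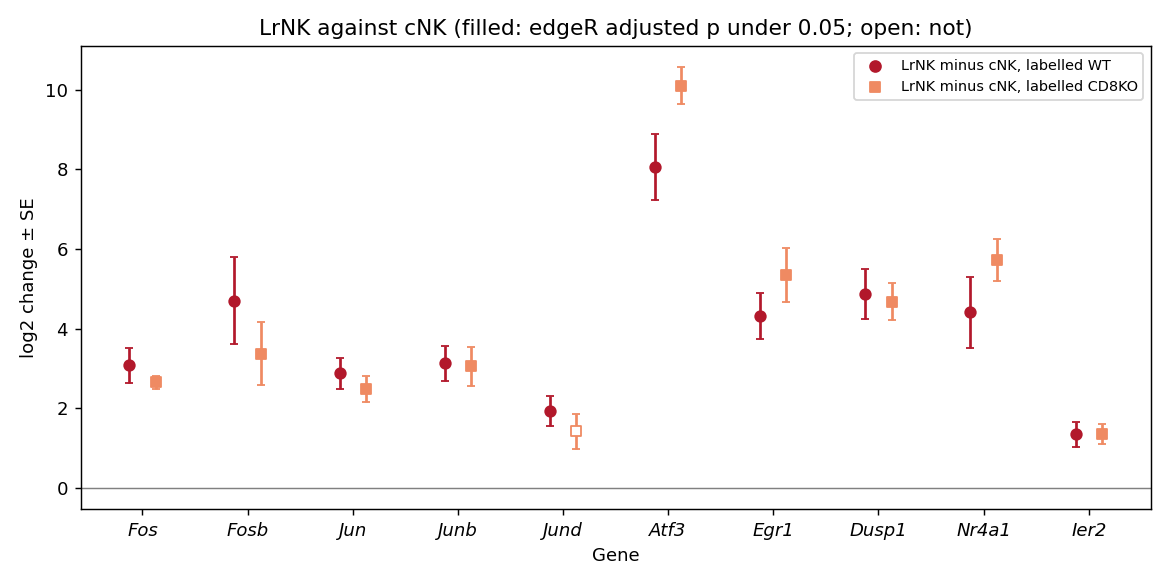
Log2 change of each gene between LrNK and cNK samples with the same label, with 1 standard error on either side. Circles are samples labelled WT and squares are samples labelled CD8KO, filled where the edgeR adjusted p was under 0.05; Jund in CD8KO is the only open symbol, and the values run from 1.35 for Ier2 to 10.1 for Atf3 in CD8KO.

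Fos was at 1263 and 1415 CPM in LrNK CD8KO 1 and the CD8KO pair, and at 262, 228 and 203 CPM in cNK CD8KO 1, 2 and 3, a change of 2.66 ± 0.16 (edgeR adjusted p = 0.000558). Fosb was at 373 and 2769 CPM against 187, 171 and 154 CPM, a change of 3.37 ± 0.79 (edgeR adjusted p = 0.0295). The 2 LrNK samples agreed closely for Fos and differed 7.42-fold for Fosb. Jun was at 1089 and 2298 CPM against 332, 337 and 330 CPM, a change of 2.49 ± 0.33 (edgeR adjusted p = 0.00527). Junb was at 4405 and 13690 CPM against 1228, 1318 and 1067 CPM, a change of 3.06 ± 0.49 (edgeR adjusted p = 0.00925). Jund was at 43.0 and 120 CPM against 35.5, 36.03 and 29.4 CPM, and its log2 difference was 1.43 ± 0.44 (edgeR adjusted p = 0.0632). For all 3 Jun genes LrNK CD8KO 1 was the lower LrNK sample, and for Jund it was only 1.19-fold above the highest cNK sample.

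Atf3 was at 408 and 741 CPM in LrNK CD8KO and at 0.782, 0.570 and 0.384 CPM in cNK CD8KO, a change of 10.1 ± 0.47 (edgeR adjusted p = 0.000281). Egr1 was at 275 and 1283 CPM against 21.0, 20.7 and 21.9 CPM, a change of 5.36 ± 0.68 (edgeR adjusted p = 0.00449). Nr4a1 was at 796 and 2404 CPM against 33.9, 34.9 and 31.9 CPM, a change of 5.73 ± 0.52 (edgeR adjusted p = 0.00165). These 3 transcription factors showed no overlap between cell types, and the CD8KO pair was the higher LrNK sample each time. Dusp1 was at 1348 and 3744 CPM against 107, 123 and 101 CPM, a change of 4.68 ± 0.47 (edgeR adjusted p = 0.00223). Ier2 was at 619 and 1014 CPM against 350, 386 and 318 CPM, a change of 1.35 ± 0.25 (edgeR adjusted p = 0.0143).

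Without any 1 of cNK CD8KO 1, 2 or 3, 6 of the 10 were called, and Fosb, Junb and Ier2 also missed the threshold (edgeR adjusted p from 0.054 to 0.13). Jund had a log2 change of 2 without LrNK CD8KO 1 and of 0.40 without the CD8KO pair. Each of these 2 fits leaves 1 LrNK sample, so that its spread comes from cNK CD8KO alone and its calls add no support. In the same pair of fits Fosb was at 4.18 and 1.17, Egr1 at 6.08 and 3.74, Nr4a1 at 6.32 and 4.61 and Dusp1 at 5.25 and 3.65.

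LrNK samples differed among themselves more than cNK samples did. The highest of the 5 LrNK samples exceeded the lowest by 2.19-fold for Ier2, 2.81-fold for Fos, 3.21-fold for Jun, 3.24-fold for Jund and 3.35-fold for Junb. The range was 4.70-fold for Dusp1, 6.12-fold for Egr1, 8.46-fold for Atf3, 14.6-fold for Fosb and 16.01-fold for Nr4a1. The median of the 10 was 4.02, against 1.76 over the 7711 genes with a mean of at least 16 CPM in LrNK. In cNK the median of the 10 was 1.26 among WT samples and 1.22 among CD8KO samples, which are fewer samples of a single label. Within WT, the ranges were 2.19-fold (Ier2) to 14.6-fold (Fosb) in LrNK and 1.06-fold (Ier2) to 3.1-fold (Fosb) in cNK. Within CD8KO they were 1.12-fold (Fos) to 7.42-fold (Fosb) in LrNK and 1.02-fold (Jun) to 2.03-fold (Atf3) in cNK. There Fos and Atf3 ranged less in LrNK (1.12 and 1.82) than in cNK (1.29 and 2.03). Over all 5 LrNK samples, at least a 4-fold range was seen in 5 of the 10 genes and in 7.34% of the 7711.

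The same samples were high for most of the 10 genes. The WT pair was the highest for Fos, Fosb, Jun, Junb, Jund and Dusp1, the CD8KO pair for Atf3, Egr1 and Nr4a1, and WT 3 for Ier2. WT 1 was the lowest for 7 genes and CD8KO 1 for Jun, Junb and Jund. Over the 7711 genes, 12.81% were highest in the WT pair and 13.69% in the CD8KO pair. The summed share of all counts taken by the 10 genes was 3.37% in the WT pair and 2.95% in the CD8KO pair, 1.98% in WT 3, 1.06% in CD8KO 1 and 0.920% in WT 1. In the 6 cNK samples it was 0.220 to 0.265%. The pairs are thus high in both genotype labels. Their libraries also had the most detected genes of the LrNK libraries (19896 to 22921), but the order did not match throughout: WT 3, with the fewest (13917), had a higher share than WT 1 and CD8KO 1, and the WT pair had fewer than the CD8KO pair but a higher share. The part of detected genes in the result was not tested. All 10 genes had every LrNK sample above every cNK sample, as did 17.27% of the 7711 genes.

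**Figure D3:**
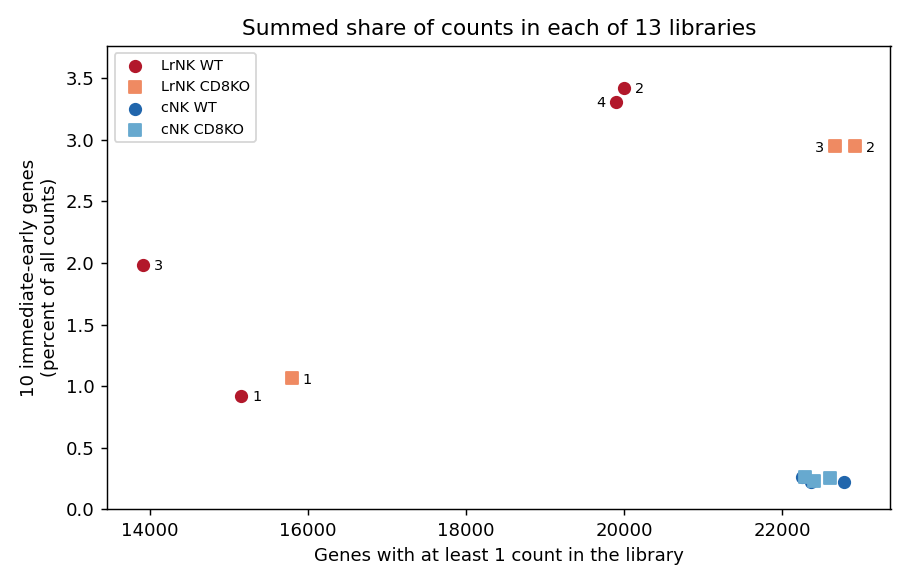
Share of all counts taken by the 10 immediate-early genes (vertical axis, percent) against the number of genes with at least 1 count, for each of the 13 libraries, with LrNK libraries numbered by replicate. WT 2 and 4 and CD8KO 2 and 3 lie highest, WT 1, WT 3 and CD8KO 1 have the fewest detected genes, and the cNK libraries lie together at 0.220 to 0.265%.

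The balance between Fosb and Fos also followed these samples. The ratio of Fosb to Fos CPM was 1.94 in the WT pair and 1.96 in the CD8KO pair, and 0.372, 0.684 and 0.295 in WT 1, WT 3 and CD8KO 1. In cNK it was 0.281, 0.289 and 0.568 in the WT samples and 0.714, 0.749 and 0.758 in the CD8KO samples. Per kilobase of exon the ratio was 0.731 and 0.737 in the pairs, and Fosb was below Fos in all 11 samples.

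Values of other cell types were also read in these samples. The 10 NK cell markers had counts in every sample, and their summed level was 12770 to 15470 CPM in LrNK WT, 7148 and 9001 CPM in LrNK CD8KO and 15700 to 17070 CPM in cNK. The 8 liver-resident markers summed to 1688 to 3420 CPM in LrNK and 188 to 209 CPM in cNK, and the 8 conventional markers to 237 to 782 CPM in LrNK and 3997 to 4255 CPM in cNK. The sums of these lists thus go with the cell type labels, but not every single gene does. Between LrNK CD8KO and cNK CD8KO, 7 of the 8 conventional markers were lower and 1 was higher, whether called or not. Cx3cr1 of that list was at 46.1 to 215 CPM in LrNK CD8KO, against 60.24 to 87.68 CPM in cNK. Rgs2 and Cd69 of the liver-resident list are also immediate-early genes. The 11 neutrophil and monocyte markers summed to 2344, 690 and 4113 CPM in LrNK WT 1, the WT pair and WT 3, to 8807 and 2500 CPM in CD8KO 1 and the CD8KO pair, and to 895 to 1021 CPM in cNK. In CD8KO 1 this sum was above that of the NK cell markers (7148 CPM). Lyz2 led this list in LrNK, at 520.3 to 7411 CPM against 12.02 to 18.91 CPM in cNK. Cd14 (23.64 to 111.5 against 2.489 to 3.687 CPM) and Csf3r (10.85 to 137.1 against 0.4401 to 1.031 CPM) were also higher in every LrNK sample. Ccr2 (609.9 to 825.3 CPM) and Ly6c2 (176.6 to 269.6 CPM) led the list in cNK, and their LrNK values overlapped these. Ly6g and Elane were at 0 to 0.112 CPM in every group.

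Erythroid markers (7 genes) summed to 154 to 3276 CPM in LrNK and 3.10 to 5.66 CPM in cNK, and hepatocyte markers (8 genes) to 27.5 to 55.3 CPM in LrNK and 0.990 to 1.32 CPM in cNK. Of the other lists, T-cell markers (8 genes) summed to 107 to 204 CPM in LrNK and 44.5 to 63.8 in cNK, B-cell markers (9 genes) to 10.4 to 144 and 5.65 to 14.4, Kupffer-cell markers (10 genes) to 113 to 445 and 178 to 268, and endothelial markers (8 genes) to 89.8 to 165 and 97.7 to 111. The last 2 sums hide differences between single genes, as Pecam1 (72.1 to 104 CPM) led the endothelial list in every group. Between LrNK CD8KO and cNK CD8KO, 6 of 8 endothelial markers were called higher. Of 10 Kupffer-cell markers, 3 were called higher and 1 lower there. Between the WT groups, 1 of 4 endothelial and 1 of 9 Kupffer-cell markers tested were called higher. Of all genes tested, 15.4% (CD8KO) and 10.9% (WT) were called higher. Mitochondrial transcripts took 0.789 to 1.24% of counts in LrNK and 0.920 to 0.962% in cNK. The part of these levels in the difference between LrNK and cNK was not tested.

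The next comparison concerns the CD8KO label within LrNK. None of the 10 genes was called, and none had groups that did not overlap. Over all genes, 9.84% had every CD8KO sample above and 8.47% every CD8KO sample below the WT samples. The edgeR test called 0 of 16504 genes, with 615 genes but none of the 10 at an unadjusted p under 0.05. DESeq2 called 62 genes and voom 0, none of the 10 among them.

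The sizes of these differences are poorly fixed because of the spread. For the Fos partners the log2 difference, CD8KO minus WT, was -0.12 ± 0.46 (Fos) and -0.16 ± 1.18 (Fosb). For the Jun genes it was -0.47 ± 0.53 (Jun), -0.02 ± 0.65 (Junb) and -0.36 ± 0.60 (Jund). Atf3 (0.82 ± 0.69), Nr4a1 (0.74 ± 0.96) and Egr1 (0.55 ± 0.80) had positive differences, and Dusp1 (-0.31 ± 0.72) and Ier2 (-0.16 ± 0.45) negative ones. The edgeR adjusted p was 1 for all 10. Within the samples with many detected genes, 1 pair per label, the CD8KO to WT ratio of CPM was 2.08 for Atf3, 1.40 for Egr1 and 1.27 for Nr4a1, and 0.658 to 0.927 for the other 7. Within those with few detected genes, CD8KO 1 against the mean of WT 1 and WT 3, it was 1.63 for Nr4a1, 1.29 for Atf3 and 1.08 for Fos, and 0.476 to 0.784 for the other 7. Even for Atf3 and Nr4a1, CD8KO 1 was below WT 3 (408 against 544 CPM and 796 against 825 CPM), and these ratios were not tested.

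Within cNK, where samples were much closer, the CD8KO label went with lower Nr4a1 and Egr1. Nr4a1 was at 46.8, 45.9 and 53.4 CPM in WT and 33.9, 34.9 and 31.9 CPM in CD8KO, which gives 48.7 ± 4.13 and 33.6 ± 1.49 CPM (SD, n = 3 and 3). The groups did not overlap, and the log2 change was -0.54 ± 0.07 (edgeR adjusted p = 0.000533). Egr1 was at 23.9, 31.6 and 31.8 CPM in WT and 21.0, 20.7 and 21.9 CPM in CD8KO, with a log2 change of -0.47 ± 0.10 (edgeR adjusted p = 0.0274). Its WT samples stayed above the CD8KO samples, with WT 1 the nearest to them. Of 16619 genes tested, 1.31% were called, 0.812% as lower and 0.499% as higher.

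Fosb was at 47.0, 42.9 and 134 CPM in cNK WT and at 187, 171 and 154 CPM in cNK CD8KO. All CD8KO samples were above all WT samples, but WT 3 stood near them, and the log2 difference of 1.2 ± 0.29 did not pass (edgeR adjusted p = 0.0612). It was called with voom (1.43 ± 0.25, limma adjusted p = 0.0108) but not with DESeq2 (1.2 ± 0.57, DESeq2 adjusted p = 0.281). Without the filter on low counts it was called (edgeR adjusted p = 5.49e-92). That fit gave an SE of 0.06 although the WT samples ran from 42.9 to 134 CPM, so its p-value adds no support. Fos, at 167, 148 and 235 CPM in WT and 262, 228 and 203 CPM in CD8KO, overlapped because of the same WT 3. Its log2 difference was 0.33 ± 0.12 (edgeR adjusted p = 0.259, DESeq2 adjusted p = 0.536). Without the filter on low counts its edgeR adjusted p was 2.45e-07, with an SE of 0.05 and the same limit as for Fosb. Without WT 3, both were called higher: Fosb by 1.91 ± 0.08 (edgeR adjusted p = 1.35e-08) and Fos by 0.53 ± 0.09 (edgeR adjusted p = 0.00694).

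Atf3 was near the bottom of its range in cNK, at 1.88, 0.976 and 1.08 CPM in WT and 0.782, 0.570 and 0.384 CPM in CD8KO. Its groups did not overlap, and the log2 difference of -1.2 ± 0.35 did not pass (edgeR adjusted p = 0.136, and 0.015 without the filter on low counts). Groups that did not overlap were also seen in 9.68% of all genes with CD8KO above WT and in 8.35% with CD8KO below. The remaining log2 differences were 0.16 ± 0.08 for Jund, 0.07 ± 0.07 for Junb, -0.07 ± 0.06 for Jun, -0.10 ± 0.10 for Dusp1 and -0.14 ± 0.06 for Ier2 (edgeR adjusted p from 0.331 to 0.735), and their groups overlapped.

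The Egr1 call did not hold without cNK WT 2 (edgeR adjusted p = 0.0596), WT 3 (0.0817), CD8KO 1 (0.0583), CD8KO 2 (0.169) or CD8KO 3 (0.057), nor with voom (0.0518). Both calls were lost when all 4 groups shared 1 estimate of the spread (edgeR adjusted p = 1 for both); that fit gave a biological coefficient of variation of 63.2%, against 9.6% with cNK alone.

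**Figure D4:**
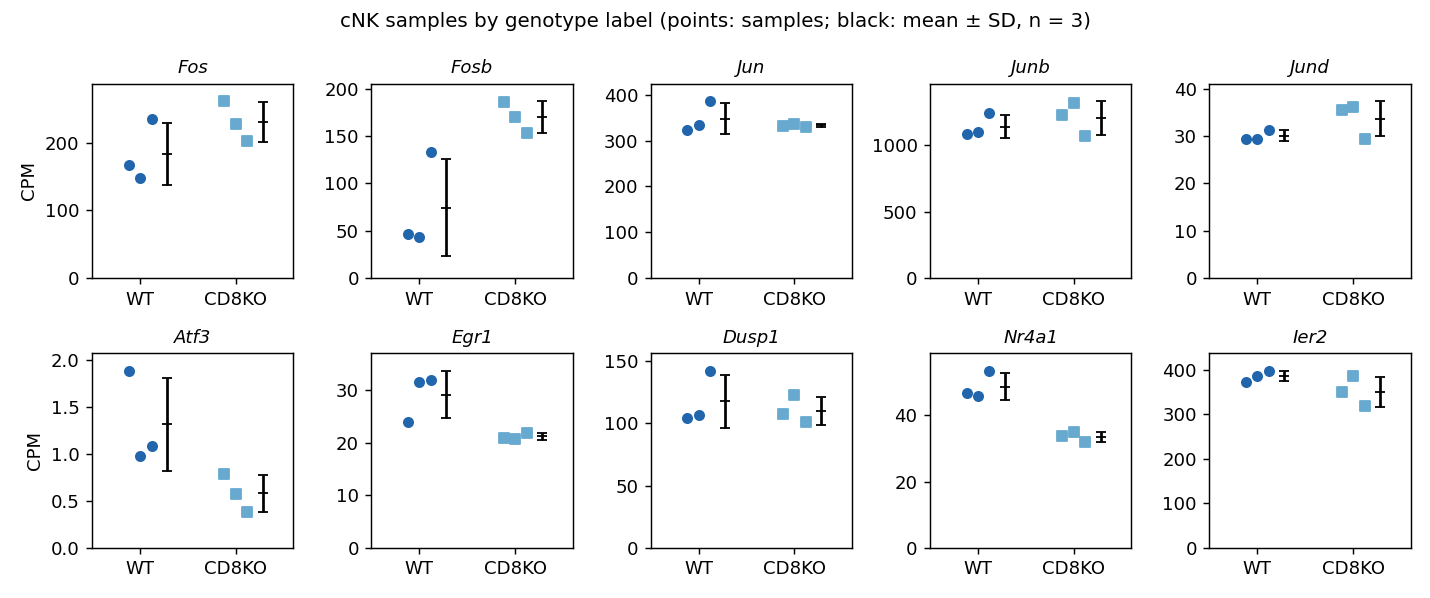
CPM of each gene in the 3 cNK WT (circles) and 3 cNK CD8KO (squares) samples, with the mean and SD in black; every axis starts at 0. Nr4a1, Egr1 and Atf3 lie lower in all CD8KO samples than in any WT sample, Fosb lies higher, and the third WT sample is the highest WT sample for Fosb and Fos.

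Whether the label's effect differed between LrNK and cNK was tested directly in 1 model over all 4 groups. None of the 10 genes was called by edgeR, where 0.0415% of 19287 genes were called. An unadjusted p under 0.05 was seen for 1628 of the 19287 genes and for 1 of the 10. That gene was Atf3, with a difference of 2.05 ± 0.88 on the log2 scale (edgeR unadjusted p = 0.0415, adjusted p = 0.563). Nr4a1 (1.32 ± 1.01), Egr1 (1.04 ± 0.84) and Fosb (-1.33 ± 1.36) followed in size, with edgeR adjusted p of 0.865, 0.881 and 0.951. The number of the 10 called was also 0 with DESeq2 and with voom.

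Genes around the 10 in the same pathway were read from 5 lists. Of all genes tested between LrNK WT and cNK WT, 10.9% were called higher in LrNK. Of 28 other immediate-early genes, 19 were called higher there and none lower, with a list median of 2.69 (log2) against -0.08 over all genes tested. The pseudokinase gene Trib1 (5.64 ± 0.28), the G-protein regulator Rgs1 (4.57 ± 0.41), Ier5l (4.15 ± 0.46) and the phosphatase regulator Ppp1r15a (2.93 ± 0.38) had the smallest p (edgeR adjusted p from 0.000127 to 0.00387). Of the other MAP kinase phosphatases 4 of 7 tested were higher, namely Dusp6 (2.20 ± 0.16), Dusp7 (1.15 ± 0.15), Dusp16 (2.40 ± 0.37) and Dusp10 (1.68 ± 0.41), with a list median of 2.20 (edgeR adjusted p from 0.000459 to 0.0324). Dusp6 and Dusp7 act mainly on ERK, and Dusp10 and Dusp16 mainly on JNK and p38.

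Of 12 other AP-1 and leucine-zipper partners, 6 were higher and 1 lower (list median 1.28). The small Maf genes Maff (7.58 ± 1.21) and Mafg (1.26 ± 0.23), the stress factor Atf4 (1.30 ± 0.25) and Batf2 (6.16 ± 1.29) led the higher ones, and Atf7 (-0.89 ± 0.22) was lower (edgeR adjusted p from 0.0083 to 0.0352). Of 6 EGR and NR4A relatives and their corepressors, only the 2 corepressors were called, Nab2 as higher (0.52 ± 0.14, edgeR adjusted p = 0.0391) and Nab1 as lower (-1.11 ± 0.11, edgeR adjusted p = 0.00173). Upstream of the 10, the kinases and the SRF, ternary complex and CREB factors had a list median of -0.26. Of these 18 genes, 1 was higher, the kinase gene Map2k2 (0.63 ± 0.11), and 4 were lower. Among the lower ones were the ternary complex factor Elk3 (-0.64 ± 0.13), the SRF coactivator Mrtfb (-0.64 ± 0.16) and Creb1 (-0.76 ± 0.21), with edgeR adjusted p from 0.0196 to 0.0473. Of all genes tested, 10.9% were called higher and 9.83% lower. The single higher calls of the upstream list and of the EGR, NR4A and NAB list are near or below that share.

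In the samples labelled CD8KO, where 15.4% of all genes tested were called higher, the counts were 22 of 28 other immediate-early genes higher (median 3.12), 7 of 8 phosphatases higher (2.37), 9 of 12 AP-1 partners higher (1.68), and 3 higher and 1 lower of 6 EGR, NR4A and NAB genes (1.78). The upstream list again had 1 of 18 higher and 4 lower (median -0.11), where 11.6% of all genes tested were called lower. Leading genes were Ier3 (6.76 ± 0.14) and Trib1 (7.28 ± 0.26), Dusp16 (3.42 ± 0.18) and Dusp4 (5.87 ± 0.55), Mafg (1.94 ± 0.12) and Batf3 (3.74 ± 0.24), and Nab2 (0.70 ± 0.15), Egr3 (1.74 ± 0.42) and Nr4a2 (3.72 ± 0.92). Nab1 (-0.68 ± 0.14), Elk3 (-0.73 ± 0.09), Elk4 (-0.83 ± 0.11), Mrtfb (-1.05 ± 0.19) and Creb1 (-0.61 ± 0.11) were lower and Map2k1 (0.71 ± 0.17) higher. Each of these 15 passed at an edgeR adjusted p of at most 0.0346.

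**Figure D5:**
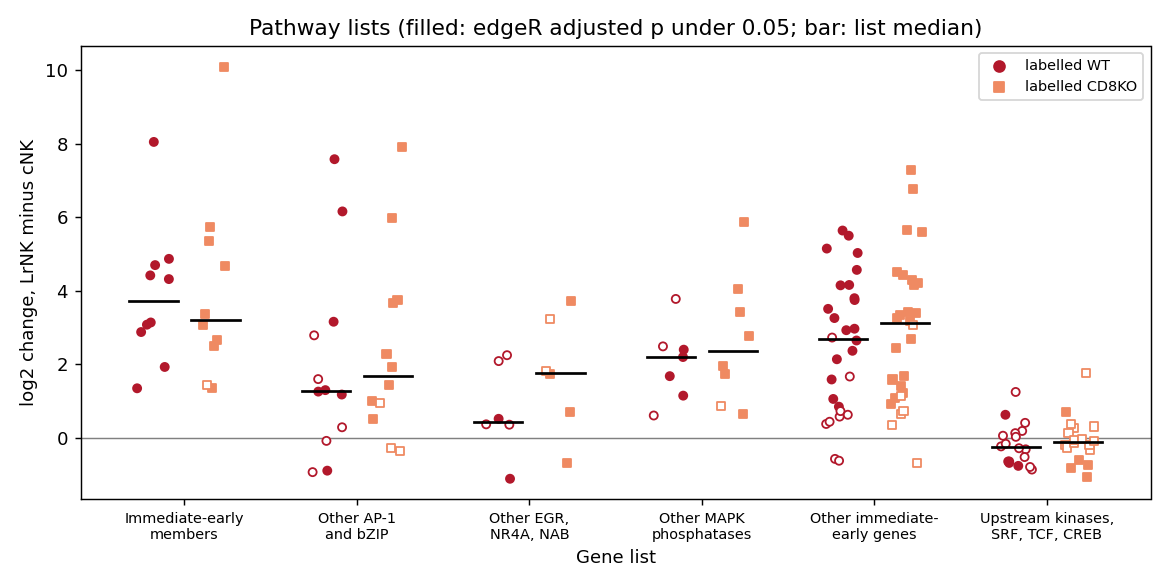
Log2 change between LrNK and cNK for the 10 immediate-early genes and 5 other lists, with circles for samples labelled WT, squares for samples labelled CD8KO, filled symbols for an edgeR adjusted p under 0.05, and bars at list medians. The medians of the 10 (3.73 and 3.21) and of the other immediate-early genes (2.69 and 3.12) lie highest, and those of the upstream kinases and factors (-0.26 and -0.11) lie below 0.

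All LrNK samples were above all cNK samples for 20 of the 28 other immediate-early genes, 7 of 12 AP-1 partners, 5 of 8 phosphatases, 1 of 7 EGR, NR4A and NAB genes and 1 of 18 upstream genes. The same was seen for 15.03% of the 12804 genes with a mean of at least 1 CPM in LrNK. For the 7711 genes with at least 16 CPM it was 17.27%. The counts of the EGR, NR4A and NAB list and of the upstream list were not above these shares. A few list genes, chosen after their values were seen, were high in the pairs alone. The AP-1 gene Fosl2 was at 1969 CPM in the WT pair and 2333 CPM in the CD8KO pair, and at 107 to 200 CPM in the other 9 samples. The nuclear receptor gene Nr4a3, a relative of Nr4a1, was at 398 and 532 CPM in the pairs and at 31.1 to 49.0 CPM elsewhere. Crem, which encodes both activators and a repressor of CRE-driven genes, was at 71.8 and 74.8 CPM in the pairs and at 6.92 to 14.7 CPM elsewhere.

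By label within cNK, where 0.812% of all genes tested were called lower and 0.499% higher, 1 of 6 EGR, NR4A and NAB genes was lower, the Nr4a1 relative Nr4a2 (-0.65 ± 0.10, edgeR adjusted p = 0.00327). Among 28 other immediate-early genes 3 were lower, Rgs2 (-0.30 ± 0.06), Gadd45b (-0.37 ± 0.08) and Rgs1 (-0.30 ± 0.07), with edgeR adjusted p from 0.0157 to 0.0485. Of the phosphatases, Dusp2 was lower (-0.49 ± 0.07, edgeR adjusted p = 0.00195) and Dusp6 higher (0.38 ± 0.07, edgeR adjusted p = 0.0192). No gene of the AP-1 or upstream lists was called.

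The genes most like the 10 across the 11 samples were sought among 7301 genes by Pearson correlation with the mean of the 10 centred log2 levels. The first 10 were Rgs2 (0.996), Ppp1r15a (0.996), Gadd45b (0.995), Prdx6 (0.994), Sik1 (0.994), Zfp36 (0.993), Nfkbia (0.991), Tuba4a (0.991), Lilrb4a (0.991) and Rrad (0.991). Of these, 6 stood on the other pathway lists. All 11 samples enter, so the gap between LrNK and cNK is part of this likeness. Over the 5 LrNK samples alone the same 10 genes correlated at 0.94 to 0.986, and none was among the first 10 there. Correlation of each immediate-early gene with the mean of the other 9 ran from 0.904 (Fosb) to 0.996 (Dusp1) over the 11 samples, and from 0.746 (Atf3) to 0.975 (Dusp1) over the 5 LrNK samples. Atf3 was thus the least like the others within LrNK.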

How the data were processed

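RNA of sorted NK cells was measured in 13 libraries. Per the submitters' processing notes, the authors aligned reads with HISAT2 2.1.0 to GRCm38 and deposited raw counts per Ensembl gene, 1 table per library. Counting tool, annotation release and strandedness: not given in the sources used here. Even numbers made up 51.0, 49.5 and 55.8% of the counts from 1 to 20 in LrNK WT 1, WT 3 and CD8KO 1. In the other libraries the share was 60.6 to 65.2%. The part of this difference in the results was not tested. Of 54532 identifiers, 54495 matched GENCODE M21 and 37 did not. Closely agreeing libraries of a group were summed (chi-square per degree of freedom under 4 and at least 3 times below any other pair of that group). CPM is a count scaled to a sample total of 1e6. Bulk depth sets counting error only, and nothing in the labels says that samples of a group are separate animals, so p-values measure the spread between these samples, which may be technical.

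Tests were edgeR 4.0.16 quasi-likelihood fits (R 4.3.3) with TMM scaling and filterByExpr (minimum count 10, minimum total 15) on the groups compared, or on all 4 groups for the difference of effects, with Benjamini-Hochberg adjustment over all genes tested, a threshold of 0.05 and scripts tested on simulated data. Alternatives were all 4 groups in the fit, RLE size factors, no filter and DESeq2 1.42.0. Another was voom with quality weights per group (limma 3.58.1), called voom in the text. Further ones were unsummed libraries, the replicate number as a block, and leaving out each sample. All 10 members were named; of each pathway list at most 4 called genes per direction with the smallest p were named, and the 10 most alike genes averaging 4 or more on the log2 CPM scale (prior count 2). The members and lists were chosen with earlier results of these data known. The values of 1 list gene are not reported here.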

Additional observations from a re-analysis of the deposited data

How the results depend on the processing

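All 10 genes stayed higher in LrNK than in cNK under every alternative run, in both labels. The number of them called was 6 to 10 when 1 sample was left out in WT, and 6 when 1 cNK sample was left out in CD8KO. The number of all genes called in LrNK WT against cNK WT was 1021 to 6856 over samples left out, and 11526 with only LrNK libraries of at least 16000 detected genes, an alternative chosen after seeing the data that leaves 1 LrNK sample, so that its spread comes from cNK WT alone and its count adds no support. In LrNK CD8KO against cNK CD8KO it was 1688 to 13004 over samples left out. Between the CD8KO groups, Jund was called without a filter, with DESeq2, with voom and with unsummed libraries (log2 change 1.34 to 1.64, edgeR, DESeq2 or limma adjusted p from 0.00652 to 0.0212). Unsummed libraries count each library of the close pair as a sample of its own. Jund was not called with all 4 groups in the fit, RLE size factors or the replicate block (edgeR adjusted p from 0.0529 to 0.0838). Nor was it called without any 1 cNK CD8KO sample (edgeR adjusted p from 0.174 to 0.209).

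For the label within LrNK, the number of all genes called was 138 with 4 groups in the fit, 259 without a filter, 62 with DESeq2, 22 with unsummed libraries and 88 with only libraries under 16000 detected genes (chosen after seeing the data); none of the 10 was called in any. Signs there were not stable for any gene but Atf3. Its log2 difference was positive in every alternative, from 0.23 without the CD8KO pair to 1.63 with the replicate number as a block. Fos turned to 0.03 and Fosb to 0.01 with voom, and Fos to 0.13 and Egr1 to -0.34 with few-gene libraries only. Over samples left out the log2 difference ran from -0.46 to 0.26 (Fos), -2.36 to 1.30 (Fosb), -1.21 to 0.01 (Jun), -1.17 to 0.61 (Junb), -1.39 to 0.24 (Jund), -1.07 to 1.30 (Egr1), -1.34 to 0.30 (Dusp1), -0.37 to 1.80 (Nr4a1) and -0.65 to 0.21 (Ier2).

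For the label within cNK, the number of all genes called was 1 with 4 groups in the fit (0 of the 10), 590 without a filter (5 of the 10), 512 with DESeq2 and 71 to 254 over samples left out (1 to 3 of the 10). Over samples left out Jun ran from -0.12 to 0.01 and Dusp1 from -0.18 to 0.05, the positive values without cNK WT 3. For the difference of effects it was 337 with DESeq2, 3 with voom, 68 with unsummed libraries and 5 to 645 over samples left out, with none of the 10 called. Over samples left out this difference ran from -3.53 to 0.13 (Fosb), -1.12 to 0.08 (Jun), -1.22 to 0.54 (Junb), -1.53 to 0.08 (Jund), -0.58 to 1.76 (Egr1), -1.22 to 0.42 (Dusp1) and -0.49 to 0.35 (Ier2).

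Whether the replicate numbers pair the samples is not known. Deviations of same-numbered samples correlated at -0.06 to 0.03 between LrNK WT and cNK WT and at 0.03 and 0.05 between the CD8KO groups. Between the cNK groups they correlated at -0.08 to 0.19, and there not every sample correlated best with its own number. Between the LrNK groups they correlated at 0.34 and 0.56, the best match of each CD8KO sample. With 2 CD8KO samples the deviations mirror each other, so this check cannot decide on pairing. With the replicate number as a block, the number of all genes called was 1801 in LrNK WT against cNK WT, 2162 in LrNK CD8KO against cNK CD8KO, 180 for the label within LrNK and 355 within cNK, Fosb was called higher in cNK CD8KO (1.39 ± 0.23, edgeR adjusted p = 0.00343), and Fos turned to 0.15 and Ier2 to 0.06 within LrNK. Within LrNK the block took the SE of Fosb from 1.18 to 0.26 and that of Junb from 0.65 to 0.11, with none of the 10 called. The cause of these changes was not tested.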
